A study of Homo sapiens with 4 samples.

Results

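The 10 genes described here are read as markers and regulators of the epithelial and the mesenchymal state: the cadherins CDH1, CDH2 and CDH3, the cytoskeletal gene VIM, the matrix gene FN1, and the transcription factors SNAI1, SNAI2, ZEB1, ZEB2 and TWIST1. They were chosen by their symbols, and all 10 were found among the 44591 rows of the gene tables, of which 19233 are protein-coding. RNA-seq was performed on total RNA of untreated HaCaT cells, an immortalized human keratinocyte line, in 4 replicates of 1 condition, so there was no group to compare with and all differences below are between genes or between replicates. The cells were grown at 37 °C and 5% CO2 in Dulbecco's medium, with 12% serum in the sample labels and another percentage in the study's methods. The study speaks of biological repeats, the labels do not say whether the replicates came from separate cultures, and the labels name no treatment, transgene or agent for any of them.

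Epithelial cells hold to each other through cadherins, whose outer parts bind the same cadherin on the next cell and whose tails bind catenins. In the epithelial to mesenchymal transition, used in development, wound repair and tumour spread, cells exchange E-cadherin for N-cadherin and take up vimentin filaments and fibronectin. Factors of the SNAI, ZEB and TWIST families drive this change, partly by binding E-box motifs in the CDH1 promoter, and microRNAs of the miR-200 family hold the ZEB factors down. Epidermal keratinocytes normally carry E-cadherin and P-cadherin.

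Levels are given as TPM, the reads of a gene per base of its length, scaled to 1000000 over the protein-coding genes of each library, which allows levels of different genes to be compared. The libraries held 73082279, 17056035, 19745170 and 19083836 counts in replicates 1 to 4. Replicate 1 stood apart: 76.1% of its counts fell on protein-coding genes, against 95.3 to 96.4% in the others, and its levels had a Spearman correlation of 0.754 to 0.780 with the other replicates, against 0.944 to 0.967 among replicates 2 to 4. Results that rest on replicate 1 are therefore given with and without it. All 10 keratinocyte markers were detected, that is, above a mean of 1 TPM, led by the keratins KRT14 (6847 ± 561, SD, n = 4), KRT5 (3244 ± 1504) and KRT6A (1558 ± 538). Markers of other cell types were low, with summed levels of 5.20 to 9.70 TPM over 7 fibroblast genes, 1.60 to 3.73 over 6 melanocyte genes, 0.956 to 2.36 over 6 endothelial genes and 11.4 to 52.0 over 6 immune cell genes, nearly all of the last from CD68 (26.5 ± 17.3) and CD14 (6.25 ± 2.73). Above 1 TPM were 2 of 7, 1 of 6, 0 of 6 and 2 of 6 of these lists, and TYR, PECAM1, KDR and TEK had 0 reads in every replicate, where 3 reads would be at most 0.219 TPM. In such bulk RNA a level cannot be split into the share of cells that carry a transcript and the amount in each of them.

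Of the 10 genes, 7 were detected (CDH3, FN1, CDH1, CDH2, SNAI2, VIM and TWIST1), close to the 63.3% of all protein-coding genes that were, and SNAI1, ZEB1 and ZEB2 were not. By mean level the order was CDH3, FN1, CDH1, CDH2, SNAI2, VIM, TWIST1, SNAI1, ZEB1 and ZEB2. Of the 9 neighbouring pairs in this order, 4 kept it in every replicate with a mean difference above its SD. They were CDH1 over CDH2, SNAI2 over VIM, SNAI1 over ZEB1 and ZEB1 over ZEB2. The last 2 of these pairs rest on 2 to 12 reads per gene. In replicates 2 to 4 SNAI1 had fewer reads than ZEB1 (4, 4 and 8 against 6, 9 and 12). Its place above ZEB1 there rests on the division by length (1709 against 7893 bases), and without length correction ZEB1 was above SNAI1. The other 5 neighbours did not differ beyond their spread over all 4 replicates. These were CDH3 and FN1, FN1 and CDH1, CDH2 and SNAI2, VIM and TWIST1, and TWIST1 and SNAI1. Without replicate 1 the mean log2(TPM + 1) difference exceeded its SD for FN1 over CDH1 (0.70 ± 0.67), CDH2 over SNAI2 (0.66 ± 0.44) and TWIST1 over SNAI1 (1.16 ± 0.46). It did not for CDH3 over FN1 (0.53 ± 0.69) and VIM over TWIST1 (0.88 ± 1.51). The plot of the 10 genes by replicate shows this order and the spread of each gene.

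**Figure D1:**
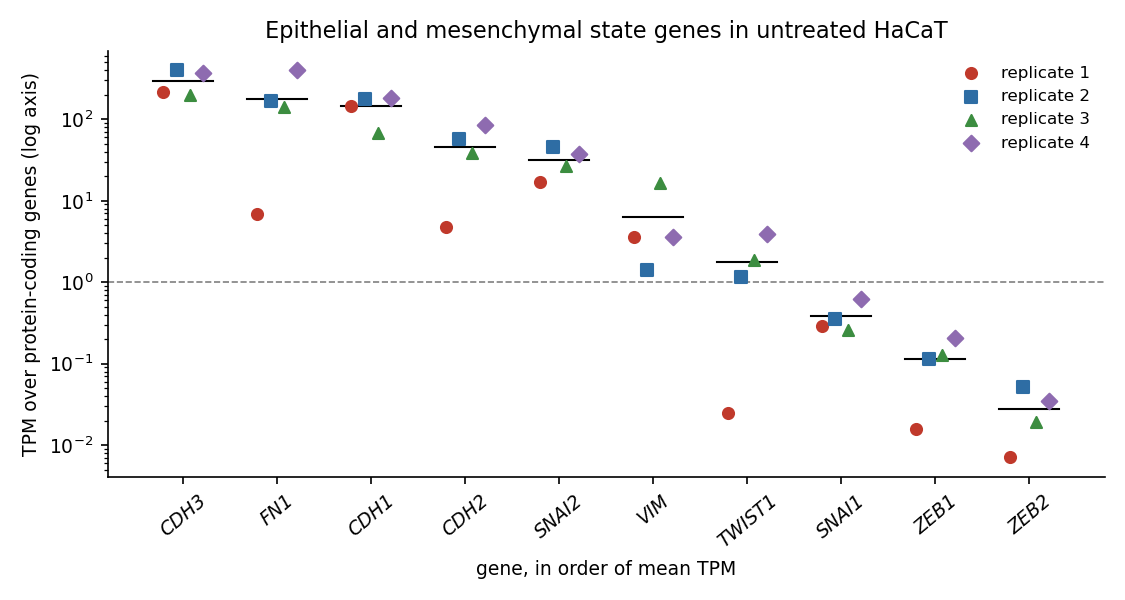
TPM over protein-coding genes (log axis) of the 10 genes in each of the 4 replicates, in order of the mean, which is drawn as a black line; the dashed line marks 1 TPM. FN1 spans 6.85 to 401 TPM, while CDH3 stays between 196 and 399, and all values of SNAI1, ZEB1 and ZEB2 lie under 1.

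CDH3, which encodes P-cadherin, had the highest mean level of the 10. The gene lies on the plus strand of chromosome 16, at 68678739 to 68732971 in hg19, the build named in the submitters' processing notes. Its level was 218, 399, 196 and 365 TPM in replicates 1 to 4 (295 ± 102, SD, n = 4), above 97.5% of protein-coding genes. Replicates 2 and 4 were high, replicates 1 and 3 were low, and the highest value was 2.03 times the lowest.

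CDH1, which encodes E-cadherin, the defining adhesion molecule of epithelia, lies 38221 bases downstream of CDH3 on the same strand, at 68771193 to 68869445. It stood at 146, 178, 67.0 and 183 TPM (144 ± 53.5), with replicate 3 low and the other 3 close to each other. Replicate 3 also differed from the rest by gene length. Over detected genes its deviation from the mean of the other replicates had a Spearman correlation of -0.42 with length, against 0.10 to 0.25 in the other replicates. With GC content its correlation was 0.38, near the 0.34 of replicate 2, against 0.24 in replicate 4 and -0.51 in replicate 1. For replicates 2 to 4 the mean of the others includes replicate 1. The part of gene length and GC content in the levels of CDH1 and of the other genes in replicate 3 was not tested. CDH1 was below CDH3 in all 4 replicates, by 1.07 ± 0.40 on the log2(TPM + 1) scale (n = 4, exact two-sided sign-flip permutation test, p = 0.13). With 4 replicates this is the smallest p the test can give, so no pair of genes could reach 0.05 by it. The test gives this p whenever all 4 differences have the same sign, whatever their spread, and each p covers only these samples. Within a library the reads per kilobase of CDH1 were 0.672, 0.446, 0.341 and 0.502 times those of CDH3 in replicates 1 to 4. The size of this difference depends on the length taken for CDH3, 3800 bases here and 4929 in GENCODE 29. With the lengths of GENCODE 29 CDH1 minus CDH3 was -0.69 ± 0.40, and without length correction it was -0.71 ± 0.40.

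CDH2 encodes N-cadherin, which is characteristic of neural and mesenchymal cells, and lies on the minus strand of chromosome 18 at 25530927 to 25757410. Its level was 4.71, 57.0, 38.3 and 84.0 TPM (46.0 ± 33.3). Replicate 1 was far below the other 3, among which the mean was 59.8 ± 23.0. CDH2 was thus well above the detection limit in every library, on 509 to 2786 reads.

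CDH1 exceeded CDH2 in all 4 replicates, by 4.69, 1.62, 0.79 and 1.11 on the log2(TPM + 1) scale (mean 2.06 ± 1.79, exact sign-flip p = 0.13), and by 1.18 ± 0.42 without replicate 1. As reads per kilobase the ratio of CDH1 to CDH2 was 31.1 in replicate 1 (95% Clopper-Pearson interval 28.5 to 34.1), 3.12 in replicate 2 (2.96 to 3.30), 1.75 in replicate 3 (1.64 to 1.86) and 2.18 in replicate 4 (2.09 to 2.28). No interval overlapped another, so the replicates differed beyond counting error, which is all these intervals cover, as PCR copies of a molecule were not told apart. CDH3 exceeded CDH2 by 3.12 ± 1.46 (exact sign-flip p = 0.13), and by 2.41 ± 0.35 without replicate 1.

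Of the summed TPM of the 3 cadherins, CDH3 took 59.0, 63.0, 65.1 and 57.7% (61.2 ± 3.41) and CDH1 took 39.7, 28.1, 22.2 and 29%. CDH2 took 1.28% in replicate 1 and 8.99, 12.7 and 13.3% in replicates 2 to 4. The share of CDH3 was thus similar in all libraries, and replicate 1 had the highest share of CDH1 and the lowest of CDH2. The size of these shares also depends on the length taken for CDH3.

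**Figure D2:**
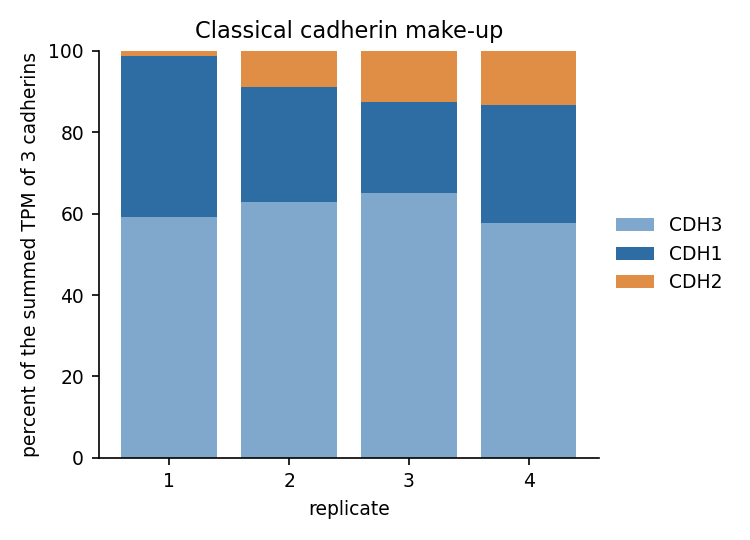
Stacked bars of the percent of the summed TPM of CDH3, CDH1 and CDH2 in each replicate (y axis, 0 to 100%). CDH3 holds 57.7 to 65.1% in every bar, and CDH2 holds 1.28% in replicate 1 against 8.99 to 13.3% in the others.

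All 8 genes found of a list named for the cadherin-catenin complex were detected. JUP, which encodes plakoglobin, was the highest (983 ± 386 TPM), followed by CTNNA1, encoding alpha-catenin (187 ± 64.8), and CTNND1, encoding p120-catenin (185 ± 121). CTNND1 stood at 35.5 TPM in replicate 1 and at 285, 136 and 282 in replicates 2 to 4, so that replicate 1 was the low one, as for CDH2. CTNNA1 was highest in replicate 1, and JUP was lowest there.

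FN1 encodes fibronectin, a secreted matrix glycoprotein that cells bind through integrins, and lies on the minus strand of chromosome 2 at 216225163 to 216300793. By the SD of log2(TPM + 1) it had the widest spread of the 7 detected genes, at 6.85, 169, 140 and 401 TPM in replicates 1 to 4 (179 ± 164, 237 ± 143 without replicate 1, and a mean of 105 without replicate 4). Replicate 1 was far below the other 3, and replicate 4 was the highest, 58.6 times replicate 1 and 2.87 times the lowest of replicates 2 to 4. The SD of log2(TPM + 1) was 2.47, higher than for 98.8% of detected protein-coding genes, and 0.81 among replicates 2 to 4, higher than for 94.1%.

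FN1 and CDH1 did not keep an order. CDH1 exceeded FN1 by 4.23 and 0.08 on the log2(TPM + 1) scale in replicates 1 and 2, and FN1 exceeded CDH1 in replicates 3 and 4, where the difference of CDH1 minus FN1 was -1.05 and -1.13. The mean difference was 0.53 ± 2.53 (n = 4, exact sign-flip p = 0.875), and -0.70 ± 0.67 without replicate 1. As reads per kilobase CDH1 was 21.4 times FN1 in replicate 1 (20.3 to 22.6), 1.05 times in replicate 2 (1.02 to 1.09), 0.479 times in replicate 3 (0.460 to 0.499) and 0.456 times in replicate 4 (0.444 to 0.469). In replicate 4 FN1 was the highest of all 10 genes.

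The 3 protein-coding genes whose centred log2(TPM + 1) values over the 4 replicates lay nearest to those of FN1, by Euclidean distance among 12164 detected genes, were ND6 (distance 0.295), LCP1 (0.400) and ND2 (0.431). ND6 and ND2 are encoded in the mitochondrial genome, and LCP1 encodes the actin-bundling protein L-plastin. ND6 stood at 84.7, 2191, 1366 and 4364 TPM and LCP1 at 0.152, 26.9, 28.5 and 77.0. The 13 mitochondrial protein-coding genes together took 1.27, 8.41, 5.18 and 12.6% of the protein-coding TPM, and their part in the level of FN1 was not tested.

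VIM encodes vimentin, the intermediate filament of mesenchymal cells, and lies on the plus strand of chromosome 10 at 17270258 to 17279592. Its level was 3.62, 1.41, 16.6 and 3.58 TPM (6.31 ± 6.95). This mean was above 48.5% of all protein-coding genes, but above only 18.5% of the detected ones. Replicate 3 stood above the other 3, and VIM rested on 188, 20, 319 and 57 reads. Among replicates 2 to 4 its SD of log2(TPM + 1), 1.46, was higher than for 99.7% of detected genes. In replicate 3 the fibroblast markers COL3A1 and COL1A2 stood at 2.72 and 2.10 TPM, against at most 0.685 and 0.195 in the other replicates, and DCN and LUM were highest in replicate 1. COL1A1, the highest of the 7 fibroblast markers, stood at 0.500, 4.92, 1.88 and 8.54 TPM, lower in replicate 3 than in replicates 2 and 4. The summed level of the 7 markers was 5.60, 5.20, 8.87 and 9.70 TPM, highest in replicate 4. COL1A2 and DCN were named after their values were seen, and the part of these markers in the level of VIM was not tested. Without replicate 3 the mean of VIM was 2.87 TPM.

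CDH1 exceeded VIM in all 4 replicates, by 4.62 ± 1.85 on the log2(TPM + 1) scale (n = 4, exact sign-flip p = 0.13). The ratio of their reads per kilobase was lowest in replicate 3, at 4.03 (3.59 to 4.54), and highest in replicate 2, at 126 (81.7 to 207). FN1 also exceeded VIM in every replicate, by 4.09 ± 2.71 (exact sign-flip p = 0.13), and by 5.20 ± 1.91 without replicate 1. The reads of VIM-AS1, which overlaps VIM on the opposite strand, came to 1.06, 10, 11.9 and 28.1% of those of VIM, and without a stated strand setting the reads of such partners cannot be told apart where they overlap.

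**Figure D3:**
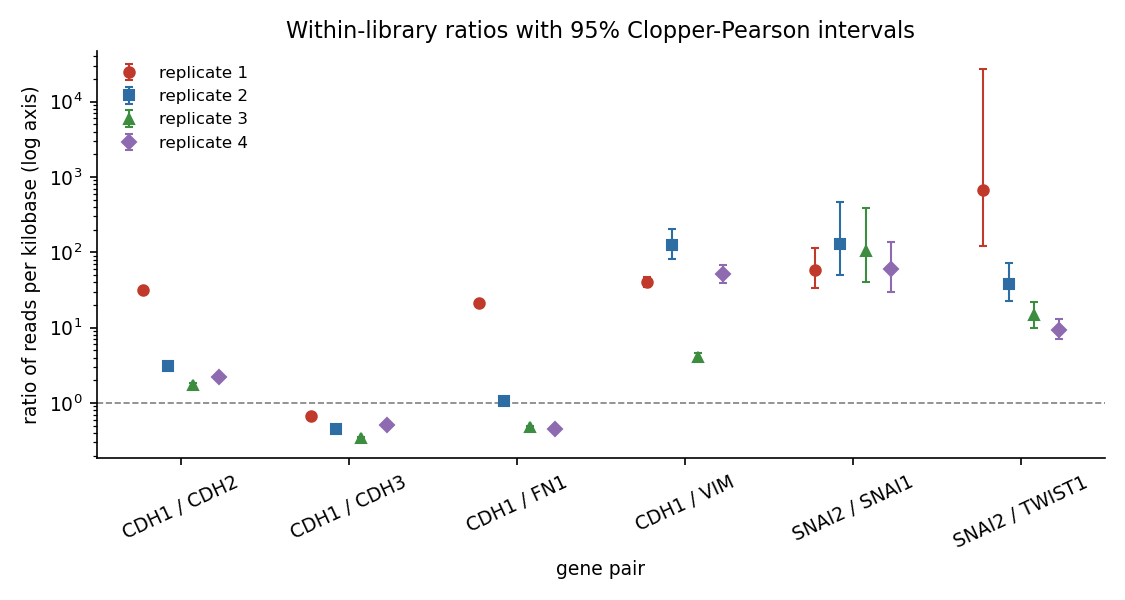
Ratio of reads per kilobase (log axis) for 6 gene pairs in each replicate, with 95% Clopper-Pearson intervals that cover counting error only; the dashed line marks equal levels. CDH1 / CDH3 is under 1 in all 4 replicates, and CDH1 / FN1 runs from 21.4 in replicate 1 to 0.456 in replicate 4.

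The transcription factors were low apart from SNAI2. SNAI2 encodes SLUG, a zinc finger repressor also found in basal epithelia, and lies on the minus strand of chromosome 8 at 49830236 to 49833999. Its level was 16.8, 45.1, 27.1 and 37.2 TPM (31.6 ± 12.3), with replicate 1 the lowest and replicate 2 the highest. CDH2 and SNAI2 did not keep an order over the 4 replicates, with a difference of 0.08 ± 1.20 on the log2(TPM + 1) scale (exact sign-flip p = 1). CDH2 was the lower gene only in replicate 1, where CDH2 minus SNAI2 was -1.64. Without replicate 1 CDH2 exceeded SNAI2 by 0.66 ± 0.44.

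SNAI1 encodes SNAIL, the paralogue of SLUG, on chromosome 20 at 48599513 to 48605423. It was under 1 TPM in every replicate, at 0.289, 0.352, 0.260 and 0.628 (0.382 ± 0.168), on 4 to 12 reads. SNAI2 exceeded SNAI1 by 4.48 ± 0.53 on the log2(TPM + 1) scale in all 4 replicates (exact sign-flip p = 0.13). The intervals of their ratio of reads per kilobase overlapped in all replicates, from 58.3 (33.2 to 113) in replicate 1 to 128 (49.8 to 471) in replicate 2, so no difference between replicates was detectable at this depth.

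TWIST1 encodes a basic helix-loop-helix factor on the minus strand of chromosome 7 at 19155091 to 19157295. It stood at 0.0247 TPM in replicate 1, on 1 read, and at 1.17, 1.87 and 3.95 TPM in replicates 2 to 4, on 13, 28 and 49 reads (mean 1.75 ± 1.65, and 1.02 without replicate 4). Replicate 1 was thus at the limit of detection, taken as 3 reads, while the others were above it. SNAI2 exceeded TWIST1 by 3.69 ± 0.68 on the log2(TPM + 1) scale (exact sign-flip p = 0.13).

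ZEB1 and ZEB2, paired zinc finger repressors of CDH1, lie on chromosome 10 at 31607424 to 31818742 and on chromosome 2 at 145141942 to 145277958. ZEB1 stood at 0.0156, 0.114, 0.127 and 0.204 TPM, on 3, 6, 9 and 12 reads. ZEB2 stood at 0.00706, 0.0516, 0.0191 and 0.0345 TPM, on 2, 4, 2 and 3 reads. In 3 of the 4 replicates ZEB2 was at or under the limit of 3 reads, and replicate 1, with the deepest library, put ZEB1 at that limit. SNAI2 exceeded ZEB1 by 4.78 ± 0.53 on the log2(TPM + 1) scale (exact sign-flip p = 0.13). For ZEB1 over ZEB2 the interval of the ratio of reads per kilobase included equal levels in replicates 1 (0.254 to 26.5) and 2 (0.525 to 10.7). In replicates 3 and 4 it did not. The antisense transcript ZEB1-AS1, which overlaps the start of ZEB1, had more reads than ZEB1 in every replicate, at 95, 17, 15 and 16.

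The mature sequences of the miR-200 family and of miR-205, from RefSeq on GRCh38.p14, are shown because their seeds (bases 2 to 8, in capitals) define the sites searched in ZEB1 and ZEB2. They fall into 3 seeds.
hsa-miR-200b-3p: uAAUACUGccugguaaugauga
hsa-miR-200c-3p: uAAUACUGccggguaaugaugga
hsa-miR-429: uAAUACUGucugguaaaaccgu
hsa-miR-200a-3p: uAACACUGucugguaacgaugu
hsa-miR-141-3p: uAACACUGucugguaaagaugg
hsa-miR-205-5p: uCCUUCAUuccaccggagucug

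The 3′ UTRs of the transcripts used for ZEB1 (2549 bases) and ZEB2 (5370 bases), from GENCODE 29, each held 9 sites for the miR-200 seeds, counted on the transcript strand as CAGTATT or CAGTGTT. Of 18148 3′ UTRs of at least 50 bases (median 855), 25.9% held at least 1 such site and 0.0276% held as many as 9. The UTRs of ZEB1 and ZEB2 are longer than most, which adds sites. FN1 held 2 sites and SNAI2 held 1, and none was found in the other 6 genes. A site for miR-205 was found in CDH3 and in ZEB1, 1 each, as in 10.2% of all 3′ UTRs. The first 3 sites of each ZEB gene are given with the site in capitals, in exon 9 of 9 of ZEB1 and exon 10 of 10 of ZEB2, on GRCh38.
ZEB1 site 1, chr10:31527618-31527640, plus strand: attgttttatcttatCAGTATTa
ZEB1 site 2, chr10:31527712-31527734, plus strand: atgctaaatccgcttCAGTATTt
ZEB1 site 3, chr10:31528031-31528053, plus strand: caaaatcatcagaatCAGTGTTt
ZEB2 site 1, chr2:144389236-144389258, minus strand: tgcaaaaattttgtaCAGTGTTa
ZEB2 site 2, chr2:144389052-144389074, minus strand: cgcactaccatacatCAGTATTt
ZEB2 site 3, chr2:144388989-144389011, minus strand: cgcactacaatgcatCAGTATTa

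Counts on the precursor rows of these microRNAs, which do not measure the mature forms, were 37, 10, 1 and 5 for MIR200A, 17, 7, 2 and 3 for MIR200B, 77, 8, 0 and 1 for MIR141 and 3, 0, 0 and 0 for MIR200C. MIR205 had 2039, 81, 18 and 69 reads, or 763, 111, 18.2 and 84.2 on the TPM scale, and was highest in replicate 1. Its host transcript MIR205HG had 47612, 2824, 1749 and 3287 reads. On the TPM scale MIR205HG stood at 2003, 434, 199 and 451, also highest in replicate 1.

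Of a list of 12 other transcription factors tied to the transition, 9 were detected. TCF3, which encodes the E-box binding protein E2A, was the highest (59.5 ± 32.9 TPM), followed by the forkhead factor FOXC1 (24.3 ± 7.02). TCF3 stood at 16.8, 68.8, 56.2 and 96.0 TPM, with replicate 1 the lowest, and 6 of the 9 detected factors were lowest in replicate 1, against 37.4% of all detected protein-coding genes. GSC had 0 reads in all 4 replicates, which allows up to 0.104 TPM in replicate 1 and up to 0.380 in replicate 2. TWIST2, named here after its values were seen, had 0 reads in replicate 1, which allows up to 0.0784 TPM, and 3.63, 6.64 and 4.77 TPM in the others, the same split as for its paralogue TWIST1.

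All 16 genes of a list of epithelial state regulators were detected. The membrane protease ST14 was the highest (412 ± 114 TPM), then the small GTPase RAB25 (229 ± 52.9) and the adhesion molecule EPCAM (203 ± 40.4). Of these 16 genes 11 were highest in replicate 1, against 40.2% of all detected protein-coding genes. Another 4 were lowest there, among them ST14 and EPCAM, against 37.4%. The summed level of the 16 was 1711, 1718, 1333 and 1677 TPM in replicates 1 to 4. Of the 16 genes, 10 were lowest in replicate 3, against 40.1%. Of the 10 keratinocyte markers, 7 were highest in replicate 1 and 7 were lowest in replicate 3.

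Of 15 other mesenchymal genes, 13 were detected, with the matrix protein gene TGFBI (583 ± 273 TPM) the highest. TGFBI is also expressed by keratinocytes. Of the 13 detected genes, 8 were lowest in replicate 1, against 37.4% of all detected protein-coding genes. S100A4, which encodes a calcium-binding protein (172 ± 183 TPM), went the other way, at 446 TPM in replicate 1 and 76.0, 95.5 and 69.7 in replicates 2 to 4. PDPN was the lowest of the list, at a mean of 0.116 TPM.

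**Figure D4:**
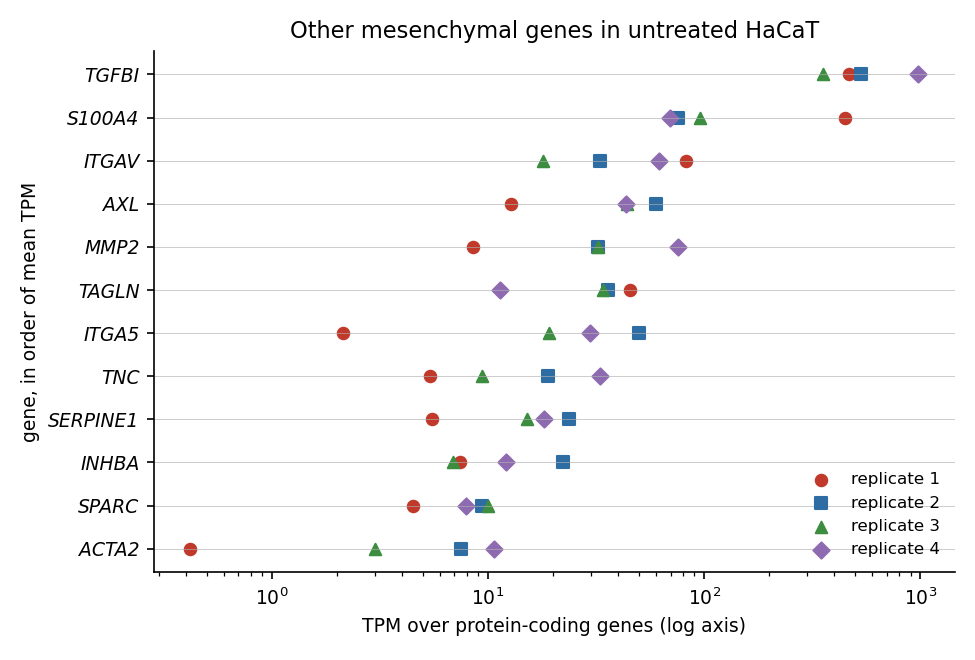
TPM over protein-coding genes (log axis) of 12 of the 13 detected genes of the mesenchymal list in each replicate, in order of mean TPM. Replicate 1 is the lowest point for 7 of these 12 genes and the highest for 3, among them S100A4 at 446 TPM.

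Among the 7 detected genes of the 10, replicate 1 was the lowest of the 4 for FN1, CDH2, SNAI2 and TWIST1, that is 4 of 7, against 37.4% of all detected protein-coding genes. Replicate 3 was the lowest for CDH1 and CDH3, 2 of 7, against 40.1%. Both counts are given without a test. The difference of replicate 1 from the mean of the others, as log2(TPM + 1), was -4.76 for FN1, -3.34 for CDH2, -1.61 for TWIST1, -1.04 for SNAI2, and 0.17 for CDH1. The median was -1.04 for the 7 genes and 0.03 for all detected genes.

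Across all detected genes the deviation of replicate 1 was lower at higher GC content of the transcript, with a Spearman correlation of -0.51 over genes, which share the library and are not independent. The transcripts of FN1 and CDH2 have a GC content of 50.2 and 45.0%. Among the 2376 genes of its own bin, of 5 bins by GC content, FN1 was lower in replicate 1 than all but 0.758% of genes, and CDH2 than all but 1.18%. SNAI2, with 41.8% GC, stood at the 8.71 percentile of its bin.

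**Figure D5:**
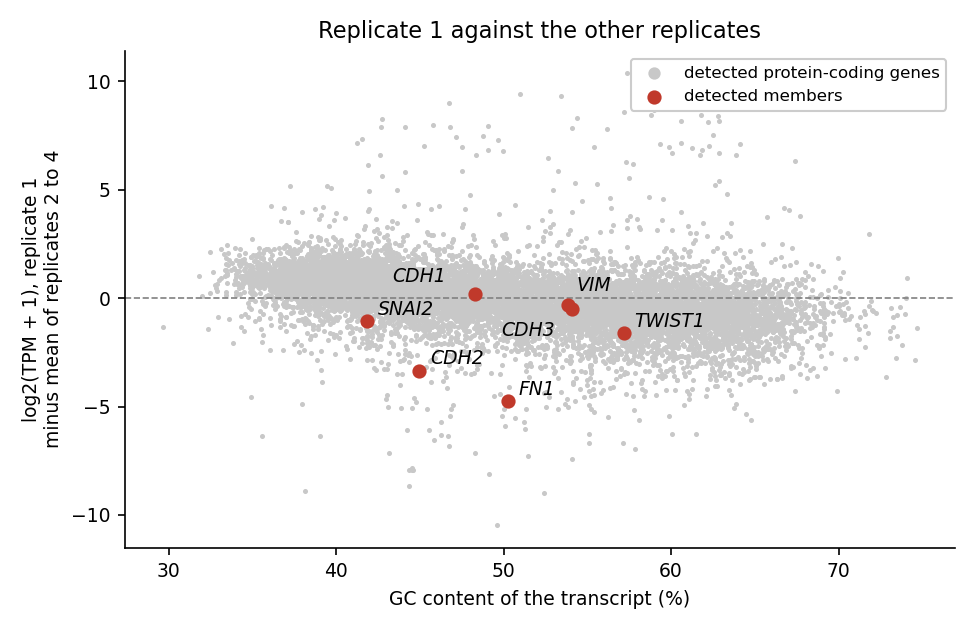
Difference of log2(TPM + 1) between replicate 1 and the mean of replicates 2 to 4 (y axis) against the GC content of the transcript in percent (x axis), for detected protein-coding genes (grey) and the 7 detected genes described here (red). FN1 at -4.76 and CDH2 at -3.34 lie below nearly all genes of like GC content, and CDH1 lies at 0.17.

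Since FN1 and CDH2 had the largest difference between replicate 1 and the rest on the log2(TPM + 1) scale, the 250 bases before their starts are shown from RefSeq on GRCh38.p14, on the minus strand, with the palindrome TGACGTCA, the motif of CREB and ATF factors, in capitals. In windows of 250 bases before to 50 after a start, TGACGTCA was in 1.85% and the E-box CACCTG, on either strand, in 20.6% of 35116 windows. FN1 held 1 TGACGTCA and no CACCTG, and CDH2, VIM and ZEB2 held neither. Of the 7 start windows of ZEB1, 2 held CACCTG. The base composition before the starts was 76.4% GC for FN1 and 66.0% for CDH2.
FN1, chr2:215436069-215436318: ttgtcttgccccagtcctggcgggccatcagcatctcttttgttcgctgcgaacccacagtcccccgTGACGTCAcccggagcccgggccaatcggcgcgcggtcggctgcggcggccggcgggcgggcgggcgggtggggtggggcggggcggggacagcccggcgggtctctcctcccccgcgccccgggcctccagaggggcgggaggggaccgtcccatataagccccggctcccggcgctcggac
CDH2, chr18:28177131-28177380: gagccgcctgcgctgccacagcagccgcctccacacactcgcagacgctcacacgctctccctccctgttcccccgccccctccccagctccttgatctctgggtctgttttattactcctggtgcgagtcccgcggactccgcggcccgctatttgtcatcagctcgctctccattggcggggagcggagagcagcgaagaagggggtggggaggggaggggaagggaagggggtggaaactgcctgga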

How the data were processed

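RNA-seq of 4 replicates of untreated HaCaT was analysed, 1 condition. The authors deposited raw counts per gene with gene lengths and positions, RPKM for replicates 1 and 2, and TPM for replicates 3 and 4. The submitters' processing notes name hg19, HISAT2, HISAT, TopHat2 and Bowtie2. The counting program, annotation, strand setting and selection of RNA are not given in the sources used here. The deposited RPKM and TPM were used only to check the counts and lengths.

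TPM was computed here over protein-coding rows from the deposited counts and lengths. A mean above 1 TPM counted as detection, and counts of 3 or fewer were taken as the limit of detection. Differences were taken as log2(TPM + 1), whose folds understate changes of low genes, and tested by two-sided exact sign-flip permutation over replicates. A p that misses 0.05 here does not show equality. No differential expression test was possible with 1 group. The members and the gene lists were chosen with earlier results of these data known. Named were the 10 genes, the 3 highest genes of each list and its lowest where under 1 TPM, the 3 genes nearest to the most variable one, and genes that overlap a member. Some genes that this rule names are not reported here. The text says where a gene was named after its values were seen, and the marker genes named at 0 reads were. GC content came from the transcript with the longest coding sequence in GENCODE 29, found for 97.7% of detected genes. Promoter windows were matched by symbol for 5 of the 10 genes. Alternatives were other scalings, no length correction, a pseudocount of 0.1, other detection limits, leaving out each replicate and, chosen after seeing the data, the transcript length of GENCODE 29. The scripts were tested on simulated data. The tests used SciPy 1.17.1 and NumPy 2.4.6 on Python 3.11.15, tables were read with pandas 2.3.3, and plots were drawn in matplotlib 3.10.9.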

Additional observations from a re-analysis of the deposited data

Results flagged for a closer look

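The level of VIM in replicate 3, 16.6 TPM, lay apart from the other 3 replicates by 0.854 of the whole range. The summed level of the 16 epithelial state regulators in replicate 3, 1333 TPM, lay below the others (1677 to 1718 TPM) by 0.894 of the range. In replicate 3 the deviation of detected genes from the mean of the other replicates had a Spearman correlation of -0.42 with gene length, against 0.10 to 0.25 in the others, and its part in both values was not tested. Of 30 sets of 4 values looked at, 2 had such a value, and chance gives about 1 in 20, or 1.5 of 30.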

How the results depend on the processing

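The direction of 9 of the 10 gene pairs was kept under every alternative tried. The exception was CDH1 minus FN1, 0.53 on the log2 scale, which became -0.31 without length correction and ran from -0.70 without replicate 1 to 1.09 without replicate 4 when each replicate was left out in turn. The other 9 pairs had the same sign in all 4 replicates. Leaving out a replicate, rescaling a library or changing the pseudocount therefore could not have reversed them. Only the alternatives that change the length correction could have. Without length correction 6 of the 10 genes kept their place in the order of levels. The number of detected genes was 7, and 9 with a limit of 0.1 TPM. It was also 7 with a limit of over 3 reads in every replicate, but the genes changed. By that limit SNAI1 (4 to 12 reads) passed and TWIST1 (1 read in replicate 1) did not. Leaving out 1 library moved the mean TPM by over 1.5 times for VIM (6.31 to 2.87 without replicate 3), FN1 (179 to 105 without replicate 4) and TWIST1 (1.75 to 1.02 without replicate 4). With 4 replicates of 1 condition no p could reach 0.05, and ZEB1, ZEB2 and SNAI1 rest on 12 reads or fewer, which limits any statement on their order. Genes were compared in pairs within each library, while samples could not be paired between groups because there is only 1 group.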

Other observations

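Of 16 other classical and type II cadherins, 4 were detected. CDH13, a cadherin without a transmembrane part, was the highest (58.4 ± 30.6 TPM, SD, n = 4), followed by CDH24 (26.5 ± 8.80) and CDH8 (15.4 ± 6.34), both type II cadherins. CDH13 was highest in replicate 1, at 100.4 against 40.3, 31.7 and 61.3 TPM. CDH4, the close relative of CDH2 that encodes R-cadherin and is named here after its values were seen, was lowest in replicate 1, at 1.01 against 11.1, 9.34 and 18.3 TPM. CDH9, CDH18 and CDH22 had 0 reads in all 4 replicates, where 3 reads would be at most 0.147 TPM.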
